A study of Mus musculus with 24 samples.

Results

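Mucin, trefoil and gastric genes were examined in pancreatic organoids: Muc1, Muc4, Muc5ac, Muc6, Tff1, Tff2, Tff3, Agr2, Cldn18 and Anxa10. The members were taken by gene symbol as 10 of the genes in a table of 19895 entries. An entry is 1 row of the table, and 9 members had an entry of their own. Muc4 was listed only in an entry shared with Muc20, whose gene overlaps it on the genome, so the reads of Muc4 and Muc20 cannot be told apart and the values below belong to both.

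The study asked how the translation of mRNAs differs between normal and tumour-derived organoids and how it responds to a rocaglate, a drug that acts on the RNA helicase eIF4A. N organoids were grown from ducts of wild-type C57Bl/6J mice, and KP organoids from pancreatic tumours of mice on the same background that carry Pdx1-Cre with engineered alleles, among them Trp53+/LSL-R172H. Pdx1-Cre acts in the pancreatic epithelial lineage, and the KP cultures hold tumour epithelium grown without its stroma. Both types were kept for 1 h with vehicle (DMSO) or with 10 nM CR-31 (CR1-31-b), and all cultures received cycloheximide before lysis. From each of 12 lysates, total mRNA and polysome-associated mRNA (mRNA carrying at least 3 ribosomes) were sequenced, which gave 24 libraries in 8 groups of 3 replicates. The labels number the replicates without saying whether they came from different mice, so the p-values measure the spread between these samples.

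Library totals ranged from 47308461 to 267463046 counts. Levels are given as CPM (counts scaled to library size by TMM) unless RPKM is named. A member was called changed where the adjusted p of edgeR's quasi-likelihood test was under 0.25. The study applied that threshold in anota2seq, with further filters on effect size and slope that were not used here. Of 12209 entries with a count above 0 in every library, 6 held members: Agr2, Tff1, Tff2, Tff3, Muc1 and the Muc4/Muc20 entry. Muc5ac, Muc6, Cldn18 and Anxa10 had a count of 0 in at least 1 library and stayed outside that test. The N and KP libraries ran on different sequencing lanes, so the lane and the organoid type cannot be told apart.

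Mucins are large glycoproteins that coat epithelia. Muc1 and Muc4 are anchored in the membrane, whereas Muc5ac and Muc6 are secreted as gels by gastric surface and gland cells. Trefoil factors are small secreted peptides that accompany mucins, and Agr2 is a protein disulfide isomerase of the endoplasmic reticulum that helps mucins to fold. Cldn18 is a tight junction claudin with a gastric isoform, and Anxa10 is an annexin of the gastric epithelium. Normal pancreatic ducts express few gastric genes, and several of these genes are known from precursor lesions of pancreatic cancer (PanIN), in which duct-like cells take on features of gastric mucosa. In bulk RNA, fewer cells of a type and less RNA per cell cannot be told apart.

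The sequences upstream of Agr2 and Muc1 are shown because these members gave the widest and one of the narrowest differences between KP and N organoids. Agr2 lies on chromosome 12 at chr12:35992925-36004081 (GRCm38.p6, plus strand) and Muc1 on chromosome 3 at chr3:89229056-89233381. The 250 bases before the annotated start, from RefSeq on GRCm38.p6, were searched on both strands for the TATA box letters TATAAA, the forkhead letters TGTTTNC, the GATA letters AGATAA and the KLF letters CCACCC, and matches are in capitals. The Agr2 window is chr12:35992675-35992924 and the Muc1 window chr3:89228806-89229055, both on the plus strand.
Agr2: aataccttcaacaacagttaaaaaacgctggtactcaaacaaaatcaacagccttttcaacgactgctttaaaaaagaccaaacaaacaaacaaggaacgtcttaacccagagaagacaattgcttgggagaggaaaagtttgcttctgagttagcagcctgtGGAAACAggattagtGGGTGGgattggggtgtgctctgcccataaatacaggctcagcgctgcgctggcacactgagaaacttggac
Muc1: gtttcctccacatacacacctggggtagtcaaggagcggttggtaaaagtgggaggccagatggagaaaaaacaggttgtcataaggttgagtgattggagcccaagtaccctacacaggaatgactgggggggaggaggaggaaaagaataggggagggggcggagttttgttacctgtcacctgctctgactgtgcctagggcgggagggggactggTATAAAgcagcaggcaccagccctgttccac

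The Agr2 window held 1 forkhead match, from 87 to 81 bases before the start, and 1 KLF match, from 72 to 67 bases before it, both on the minus strand. The Muc1 window held 1 TATA box match, from 31 to 26 bases before the start, and no match to the other letters. Of 32851 mouse promoter windows of the same length, 17.8% held a forkhead match, 28.1% a KLF match, 9.99% a GATA match and 12.4% a TATA box match. The matches overlapped no other motif. Windows were listed for 6 of the 10 members, and a match describes these letters only.

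Agr2 showed the widest difference of the tested members. In polysome-associated mRNA of vehicle-treated KP organoids its level was 77.4, 27.97 and 28.2 CPM in replicates 1, 2 and 3, against 0.248, 0.324 and 0.501 CPM in N organoids. In total mRNA it was 94.4, 36.6 and 59.9 CPM in KP organoids and 0.286, 0.183 and 0.145 CPM in N organoids. Every KP library lay above every N library, and replicate 1 was the highest of the KP replicates. The difference was 6.97 ± 0.82 on the log2 scale (SE, n = 3 per group) in polysome-associated mRNA, a fold of 125.6, with an edgeR adjusted p of 0.00102. In total mRNA it was 8.26 ± 0.54 (SE, n = 3 per group), a fold of 305.5, with an edgeR adjusted p of 5.22e-05. With CR-31 in both types the log2 difference was 7.98 ± 0.86 for polysome-associated and 7.57 ± 0.53 for total mRNA, and Agr2 was called in both (edgeR adjusted p = 0.000984 and 9.72e-05). Leaving out any 1 lysate or replicate number kept the vehicle differences between 6.31 and 7.33 in polysome-associated mRNA and between 7.86 and 8.58 in total mRNA. The N values rested on few reads: the lowest Agr2 count in a library was 10.

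Tff3, the trefoil factor of intestinal goblet cells, was also higher in KP organoids. Its gene lies beside Tff2 and Tff1 on chromosome 17, at chr17:31125306-31129611. In polysome-associated mRNA with vehicle Tff3 was at 23.05, 16.9 and 13.3 CPM in KP replicates 1, 2 and 3, and at 1.52, 5.11 and 0.612 CPM in N replicates. In total mRNA it was at 14.3, 9.82 and 10.75 CPM in KP organoids and at 1.39, 7.30 and 0.232 CPM in N organoids. The groups did not overlap in either fraction, with or without CR-31, and N replicate 2 came nearest to the KP values. The log2 difference with vehicle was 2.88 ± 0.87 in polysome-associated mRNA (SE, n = 3 per group, edgeR adjusted p = 0.0451) and 1.97 ± 1.04 in total mRNA (edgeR adjusted p = 0.275). Tff3 was therefore called in polysome-associated but not in total mRNA with vehicle, and the test of translational efficiency, which compares the 2 fractions, gave a log2 value of 0.40 ± 0.37 (edgeR adjusted p = 0.653). With CR-31 in both types, Tff3 was called in polysome-associated mRNA (2.23 ± 0.85, edgeR adjusted p = 0.142) and in total mRNA (2.33 ± 1.06, edgeR adjusted p = 0.168). Without the vehicle lysate of N replicate 2 the total mRNA difference was 3.83 and Tff3 was called (edgeR adjusted p = 0.0732). The CR-31 calls were lost without the CR-31 lysate of KP replicate 1, with values of 1.92 in polysome-associated mRNA (edgeR adjusted p = 0.376) and 1.68 in total mRNA (edgeR adjusted p = 0.458). The polysome call was also lost without KP replicate 3 (2.24, edgeR adjusted p = 0.278), and the total call without the CR-31 lysate of N replicate 3 (1.88, edgeR adjusted p = 0.324). The vehicle polysome call held with any 1 lysate or replicate number left out, with values from 2.41 to 4.05.

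Tff1, the trefoil factor of the gastric surface, was called in 1 of these comparisons, and 1 culture carried it. In polysome-associated mRNA with vehicle it was at 1.55, 17.3 and 4.17 CPM in KP replicates 1, 2 and 3, against 1.91, 3.86 and 1.74 CPM in N replicates. In total mRNA it was at 1.28, 11.92 and 3.87 CPM in KP organoids and 1.48, 3.95 and 1.73 CPM in N organoids. KP replicate 2 was the highest of all these libraries and KP replicate 1 lay below the N libraries of each fraction, so the groups overlapped. The log2 difference was 1.61 ± 0.81 in polysome-associated mRNA (SE, n = 3 per group, edgeR adjusted p = 0.192) and 1.25 ± 0.78 in total mRNA (edgeR adjusted p = 0.355). Without the vehicle lysate of KP replicate 2 the polysome value was 0.19 with an edgeR adjusted p of 0.894, and the call was lost. It was also lost without the vehicle lysate of N replicate 1 (1.45, edgeR adjusted p = 0.326) or N replicate 3 (1.39, edgeR adjusted p = 0.324). With CR-31 in both types the log2 differences were 0.83 ± 0.80 in polysome-associated and 1.03 ± 0.78 in total mRNA, with edgeR adjusted p-values of 0.592 and 0.390.

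Tff2, the trefoil factor of gastric neck cells and also called spasmolytic polypeptide, was present in both types. In polysome-associated mRNA with vehicle it was at 5.999, 40.9 and 26.4 CPM in KP replicates and at 8.12, 49.2 and 30.4 CPM in N replicates. In total mRNA it was at 3.98, 28.4 and 36.1 CPM in KP organoids and at 7.46, 101.0 and 20.2 CPM in N organoids. Replicate 1 was the lowest in both types and both fractions, and the groups overlapped throughout. The log2 difference between KP and N organoids with vehicle was -0.26 ± 0.86 in polysome-associated mRNA and -0.91 ± 1.01 in total mRNA (SE, n = 3 per group), with edgeR adjusted p-values of 0.867 and 0.633. Without the vehicle lysate of N replicate 2 the sign turned, to 0.34 and 0.72, and Tff2 was called in neither.

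Muc1 was the most abundant member, and its groups overlapped in every comparison. With vehicle its polysome-associated mRNA was at 400.6, 501.5 and 963.5 CPM in KP replicates and at 283.2, 867.8 and 742.0 CPM in N replicates. Total mRNA was at 565.3, 614.0 and 1051 CPM in KP organoids and at 305.1, 969.9 and 838.6 CPM in N organoids. The log2 difference was -0.02 ± 0.48 and 0.08 ± 0.47 in the 2 fractions (SE, n = 3 per group), with edgeR adjusted p-values of 0.982 and 0.944. These standard errors leave room for a difference of either sign.

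The Muc4/Muc20 entry, with Muc4 at chr16:32735886-32782391 and Muc20 at chr16:32777419-32797435, was at 22.2, 23.5 and 41.8 CPM in polysome-associated mRNA of vehicle-treated KP replicates. The N replicates gave 5.002, 57.3 and 81.4 CPM. In total mRNA the values were 47.1, 37.1 and 65.9 CPM in KP organoids and 7.72, 83.9 and 76.0 CPM in N organoids. N replicate 1 was below the KP libraries of each fraction and N replicates 2 and 3 were above them. The log2 differences of -0.72 ± 0.83 and -0.16 ± 0.84 (SE, n = 3 per group) gave edgeR adjusted p-values of 0.585 and 0.934. Without N replicate 1 the log2 difference was -1.23 in polysome-associated mRNA (edgeR adjusted p = 0.0302) and -0.69 in total mRNA (edgeR adjusted p = 0.197), and the entry was then called lower in KP organoids. With CR-31 it was -0.80 in total mRNA without that replicate (edgeR adjusted p = 0.124).

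**Figure D1:**
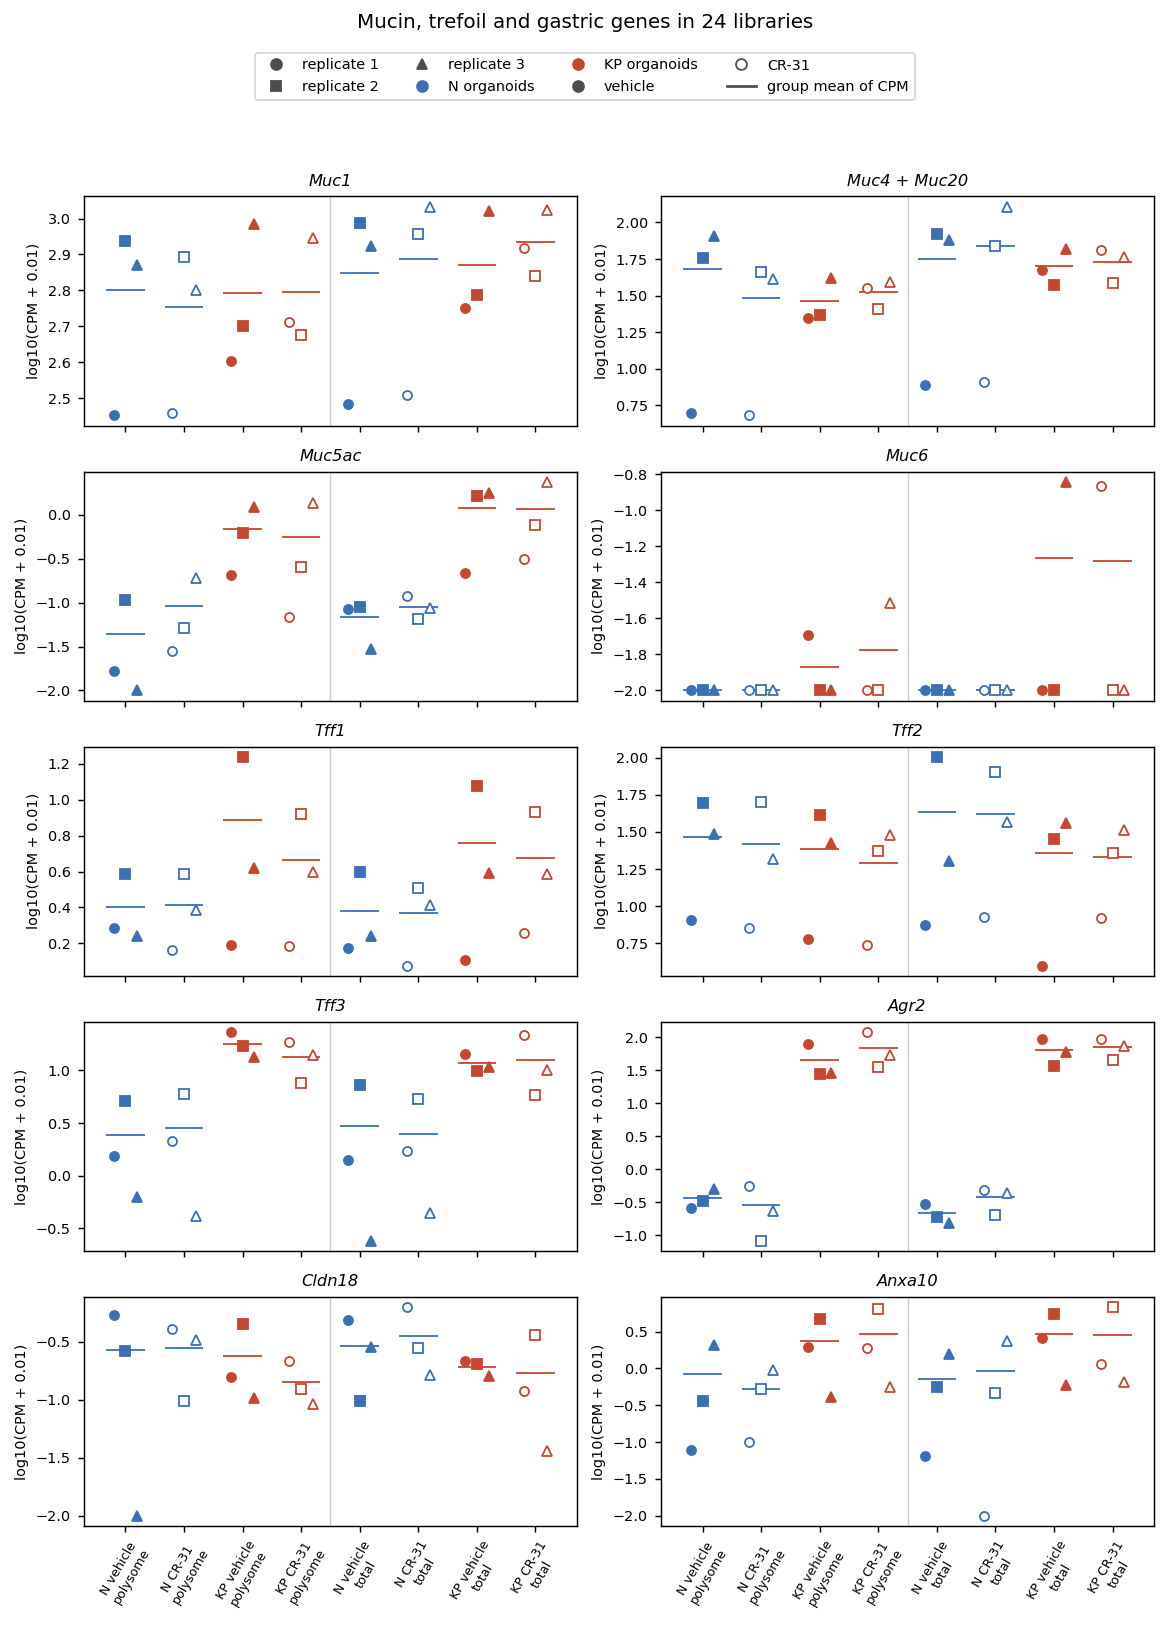
Level of each member in 24 libraries as log10(CPM + 0.01), by group, with symbols for replicate numbers and bars for the group mean of CPM; a value of -2 is a count of 0. Agr2 lay between 27.97 and 119.0 CPM in KP and between 0.0734 and 0.550 CPM in N libraries, while Muc6 was at 0 in 20 of 24 libraries.

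The secreted gastric mucin Muc5ac was low in all libraries, and its KP libraries lay above the N libraries of the same treatment and fraction, apart from the CR-31 polysome groups, which overlapped. In total mRNA with vehicle it was at 0.205, 1.64 and 1.76 CPM in KP replicates and at 0.0748, 0.0796 and 0.0194 CPM in N replicates. In polysome-associated mRNA it was at 0.197, 0.611 and 1.21 CPM in KP organoids and at 0.00671, 0.0959 and 0 CPM in N organoids. The N libraries held 11, 10 and 2 counts in total mRNA and 1, 8 and 0 in polysome-associated mRNA, so no fold is given. An exact 2-sided permutation test on log2(CPM + 0.1) gave p = 0.1 in both fractions, the smallest p that 3 against 3 allow. KP replicate 1 was the lowest KP replicate in each group.

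Anxa10 spread widely between the replicates of each type. In total mRNA with vehicle it was at 2.56, 5.53 and 0.585 CPM in KP replicates 1, 2 and 3 and at 0.0544, 0.541 and 1.55 CPM in N replicates. In polysome-associated mRNA it was at 1.95, 4.69 and 0.400 CPM in KP organoids and at 0.0671, 0.348 and 2.09 CPM in N organoids. KP replicate 3 lay within the N values, so the groups overlapped. The exact 2-sided permutation test gave p = 0.2 in total and p = 0.3 in polysome-associated mRNA.

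Cldn18 and Muc6 were too low to assess, with a median under 0.5 CPM in each of the 8 groups. Cldn18 ranged from 0 to 0.614 CPM with counts from 0 to 78, and N and KP libraries overlapped in each comparison. Muc6, the mucin of gastric gland cells, had a count of 0 in all 12 N libraries and in 8 of 12 KP libraries, and at most 16 counts in any library. A count of 0 allows up to 3 counts, which was 0.0105 to 0.0680 CPM depending on the library, so a Muc6 level below that was not detectable at this depth. Such limits cover counting error only. Muc5ac reached a group median of 1 CPM or more only in total mRNA of vehicle-treated KP organoids (1.64 CPM).

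Counted over the tested members, 3 of 6 were called between KP and N organoids in vehicle polysome-associated mRNA, all higher, against 43.8% of all entries tested. In vehicle total mRNA 1 of 6 was called against 28.6% of all entries. With CR-31 in both types 2 of 6 were called in polysome-associated mRNA (24.6% of all entries) and 2 of 6 in total mRNA (39.5% of all entries). These shares lay close to the background. Their median log2 difference was 0.80 and 0.66 in the vehicle fractions and 0.48 and 0.60 with CR-31, against medians over all entries of -0.08, -0.03, -0.02 and -0.08. Agr2 and Tff3 were the 2 of 6 tested members whose N and KP values did not overlap in these comparisons. Of all entries, 33.7% did not overlap in vehicle polysome-associated mRNA, 32.3% in vehicle total mRNA, 28.6% in CR-31 polysome-associated mRNA and 29.4% in CR-31 total mRNA.

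**Figure D2:**
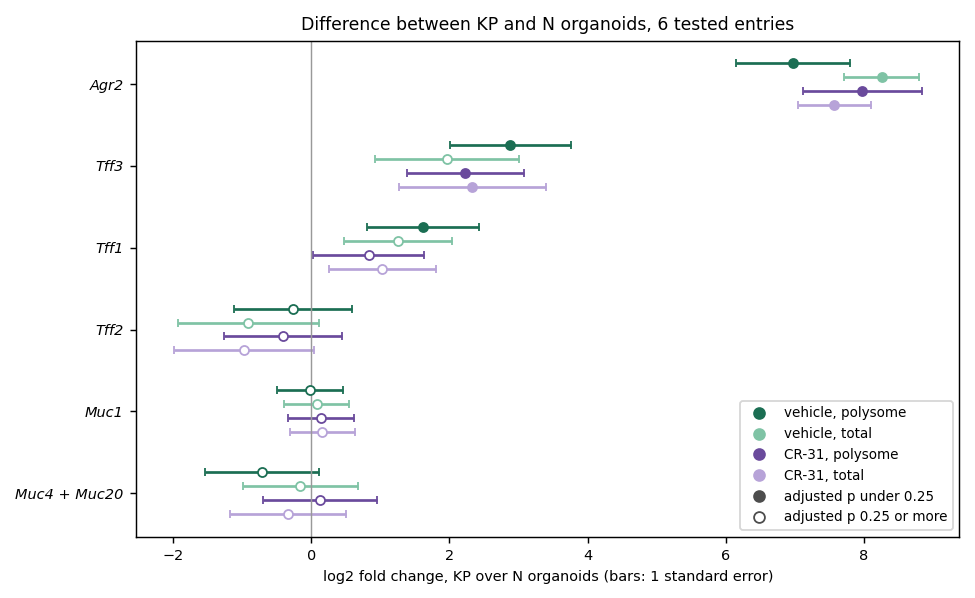
Log2 fold change of KP over N organoids for the 6 tested entries in 4 comparisons, with bars of 1 standard error and filled symbols for an adjusted p under 0.25. Agr2 lies between 6.97 and 8.26 and Tff3 between 1.97 and 2.88, while the bars of Muc1 cross 0 in all 4 comparisons.

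Levels of different genes were compared per length, by the RPKM in the deposited table, with no test. In polysome-associated mRNA of vehicle-treated N organoids the order was Muc1 at 292.9 ± 146.7 RPKM (SD, n = 3), Tff2 at 53.7 ± 39.8, the Muc4/Muc20 entry at 16.9 ± 13.3, Tff3 at 5.71 ± 5.80 and Tff1 at 5.55 ± 2.92 RPKM. Tff3 and Tff1 did not differ beyond their spread. Agr2 was sixth in that order at 0.484 ± 0.142 RPKM. In KP organoids Muc1 was again first at 268.5 ± 129.9 RPKM, followed by Agr2 at 57.4 ± 38.2, Tff2 at 40.9 ± 28.7 and Tff3 at 37.7 ± 11.3 RPKM. Agr2, Tff2 and Tff3 lay within their spread of each other. Agr2 thus stood above 91.9% of the other entries in KP organoids and above 44.1% in N organoids.

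The replicates of 1 organoid type differed widely in these genes. Levels were averaged over the 4 libraries of each replicate number, that is both treatments and both fractions. Within N organoids, Tff3 was at 1.68, 5.93 and 0.421 CPM in replicates 1, 2 and 3, and no library of 1 replicate overlapped those of another. The Muc4/Muc20 entry was at 6.42 CPM in N replicate 1 and at 64.1 and 81.6 CPM in N replicates 2 and 3, and Muc1 was at 299.6, 881.3 and 823.1 CPM. Replicate 1 of the N organoids was thus the lowest in both membrane mucin entries. Tff2 was at 7.81 CPM in N replicate 1 and 70.2 CPM in N replicate 2, and at 5.93, 28.9 and 31.3 CPM in KP replicates.

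Within KP organoids, Tff1 was at 1.54, 11.5 and 3.97 CPM in replicates 1, 2 and 3, and Agr2 was at 95.8, 36.4 and 54.2 CPM. Replicate 1 was the lowest of the 3 for Tff1 and the highest for Agr2. Anxa10 spanned 0.0533 to 1.73 CPM among N replicates and 0.540 to 5.86 CPM among KP replicates, with all replicates of a type apart from each other. The fold from the lowest to the highest replicate was 14.1 for Tff3 and 12.7 for the Muc4/Muc20 entry in N organoids, where the median entry had a fold of 1.56. In KP organoids it was 7.48 for Tff1 and 5.28 for Tff2, where the median entry had a fold of 1.32. These folds exceeded those of 98.7% (Tff3), 98.5% (Muc4/Muc20), 98.5% (Tff1) and 97.4% (Tff2) of the tested entries in the same type. Muc1 in KP organoids, with a fold of 1.73, exceeded 78.1%.

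**Figure D3:**
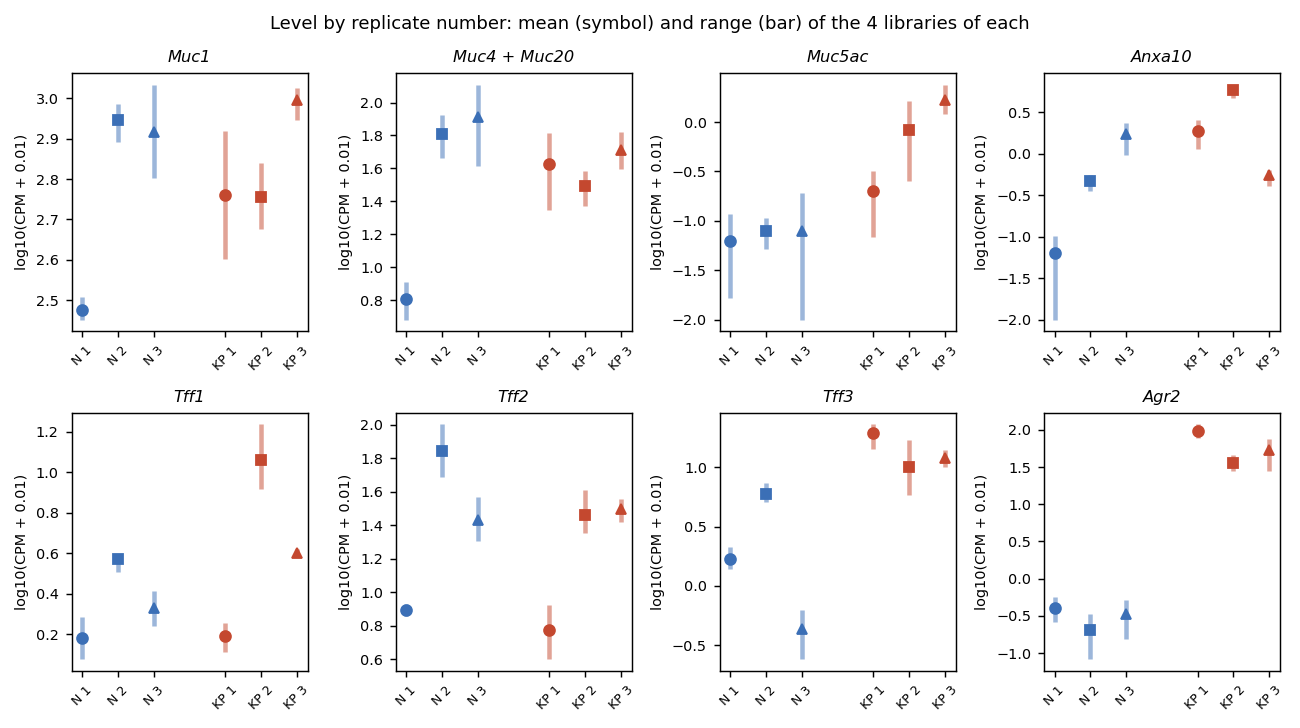
Level of 8 members by replicate number as log10(CPM + 0.01), with the mean (symbol) and the range (bar) of the 4 libraries of each replicate. Tff1 in KP organoids and Tff3 in N organoids show 3 separate levels, and the Muc4/Muc20 entry was at 6.42 CPM in N replicate 1.

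Over the 24 libraries, the log2 CPM of Muc1 and of the Muc4/Muc20 entry had a Pearson r of 0.93, and of 0.92 after each group's mean was taken out. Agr2 and Tff3 had an r of 0.76, which was -0.07 after the group means were taken out. Tff1 and Tff2 had an r of 0.62, and of 0.79 without group means. Agr2 and Tff1 had an r of 0.28, and of -0.75 without group means. The points share lysates and depth, and these values are a description. Among all tested entries, those most like Agr2 were Ddt, Atp2a3 and Cyp2d26 with an r of 0.97 each, and their r without group means was 0.42, -0.09 and 0.21. The entry most like Muc1 was Fam221a (0.94, and 0.95 without group means), which was also the one most like the Muc4/Muc20 entry. The entries nearest to Tff1, Tff2 and Tff3 were Kcnq1 (0.87), Mup20 (0.97) and 2310057J18Rik (0.95).

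No member was called after 1 h of CR-31. On the polysomes of KP organoids edgeR called 0 of 6, and 0% of all entries. In total mRNA of KP organoids, and in polysome-associated and total mRNA of N organoids, the counts were again 0 of 6, with 0% of all entries called in each. DESeq2 also called 0 of 6 in all 4 comparisons, against 0% of all entries in both polysome comparisons, 0.0657% in KP total and 0.131% in N total mRNA. In these fits of edgeR and DESeq2, with all libraries and neither a block nor a lane term, no member had an unadjusted p under 0.05. With the sequencing lane as a term, the Muc4/Muc20 entry in N polysome-associated mRNA had a log2 difference of -1.79 ± 0.81 (SE, n = 3 per group, unadjusted p = 0.0488, edgeR adjusted p = 1). The difference between the CR-31 effects of the 2 types in polysome-associated mRNA was called for 0 of 6 members and 0% of all entries. Samples of the same replicate number deviated together. A fit in which that number was a block called 20.8% of all entries for CR-31 in KP polysome-associated mRNA, but still 0 of 6 members. The lowest adjusted p of a member in that comparison was 0.311, for Tff3. With the same block, Agr2 in total mRNA of N organoids had a log2 difference of 0.81 ± 0.27 (SE, n = 3 per group, unadjusted p = 0.0153, edgeR adjusted p = 0.507), with log2 ratios above 0 in 3 of 3 replicates (0.71, 0.12 and 1.55), and was not called.

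For Agr2 the CR-31 libraries in KP polysome-associated mRNA were at 119.0, 35.3 and 54.1 CPM in replicates 1, 2 and 3, against 77.4, 27.97 and 28.2 CPM with vehicle. The CR-31 level was the higher one in 3 of 3 replicates, with log2 ratios of 0.62, 0.34 and 0.94, although the groups overlapped. The log2 difference was 0.64 ± 0.62 (SE, n = 3 per group, edgeR adjusted p = 1), and 0.63 ± 0.35 with the replicate block (edgeR adjusted p = 0.322). In N organoids the ratios in the same fraction were 1.14, -2.13 and -1.09, on levels of 0.0734 to 0.550 CPM.

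Tff3 in KP polysome-associated mRNA was at 18.6, 7.58 and 13.98 CPM with CR-31, and its log2 ratios to vehicle were -0.31, -1.15 and 0.07. The difference was -0.41 ± 0.81 (SE, n = 3 per group, edgeR adjusted p = 1). Tff1 in the same fraction was at 1.53, 8.28 and 3.96 CPM with CR-31, with ratios of -0.02, -1.06 and -0.08, and replicate 2 gave the lowest ratio for both genes. The Muc4/Muc20 entry had ratios of -0.06, -0.33 and -0.98 in N polysome-associated mRNA and of 0.67, 0.12 and -0.08 in KP. With the replicate block the difference between the 2 types for that entry was 0.70 ± 0.29 (unadjusted p = 0.038, edgeR adjusted p = 0.341), which was not called. Muc1 ratios lay between -0.23 and 0.55 in all 12 pairs.

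Within each sequencing lane, where vehicle or CR-31 had a single sample and the replicate numbers were not matched, the Agr2 difference in KP polysome-associated mRNA was 1.35 in 1 lane and 0.63 in the other on the log2 scale. For Tff1 it was -1.75 and 0.46 and for Tff3 -0.08 and -0.37. These values cannot be told apart from the difference between the replicates in each lane, and the same-replicate ratios of Tff1 were -0.02, -1.06 and -0.08.

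**Figure D4:**
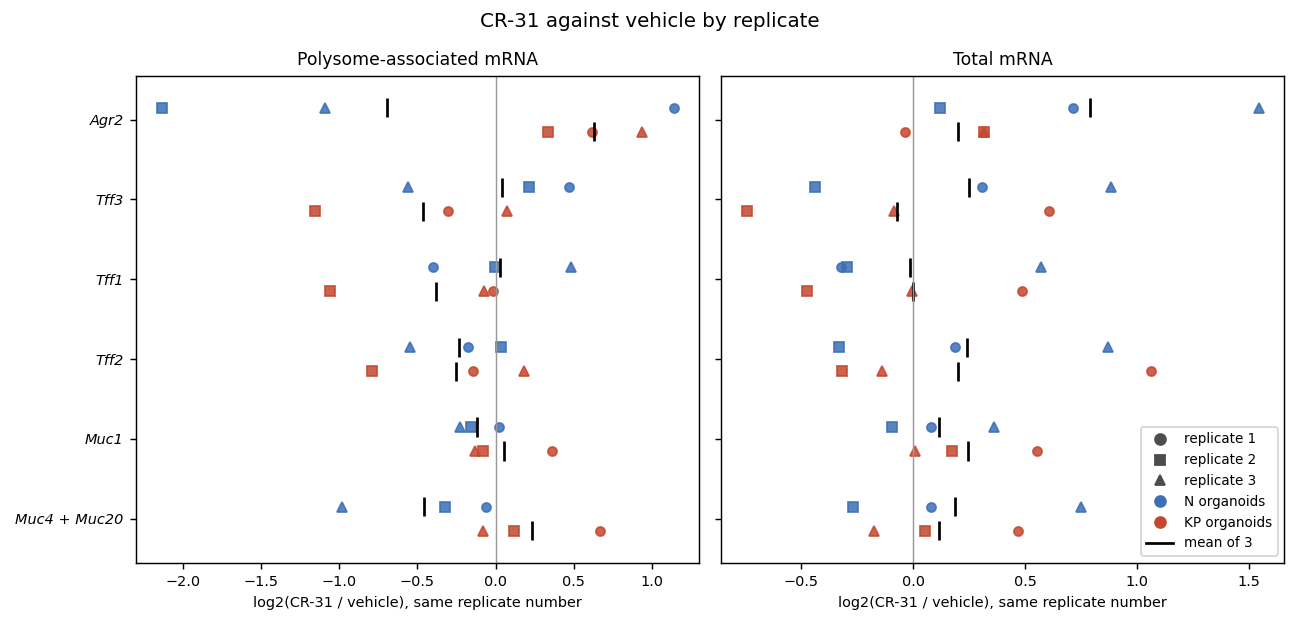
Log2 ratio of CR-31 to vehicle for samples of the same replicate number, in polysome-associated (left) and total mRNA (right), with a bar at the mean of 3. Ratios fall on both sides of 0 for most members, and the 3 KP ratios of Agr2 in polysome-associated mRNA are 0.62, 0.34 and 0.94.

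Muc5ac in KP polysome-associated mRNA was at 0.0582, 0.244 and 1.36 CPM with CR-31 against 0.197, 0.611 and 1.21 CPM with vehicle (exact 2-sided permutation test, p = 0.8). Anxa10 was at 1.86, 6.48 and 0.542 CPM with CR-31 against 1.95, 4.69 and 0.400 CPM with vehicle (exact 2-sided permutation test, p = 0.8). Both pairs of groups overlapped.

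Polysome-associated mRNA was next compared with total mRNA of the same lysate, with the lysate as a block. In vehicle-treated KP organoids 4 of 6 members were called, against 28.3% of all entries. The Muc4/Muc20 entry was lower on polysomes in 3 of 3 lysates, with log2 ratios of -1.08, -0.66 and -0.66 and a fitted value of -0.80 ± 0.20 (SE, n = 3, edgeR adjusted p = 0.0585). Agr2 ratios were -0.29, -0.39 and -1.09 (fitted -0.59 ± 0.27, edgeR adjusted p = 0.212), and those of Muc1 were -0.50, -0.29 and -0.13 (fitted -0.30 ± 0.15, edgeR adjusted p = 0.235). Tff3 was higher on polysomes, with ratios of 0.69, 0.78 and 0.31 (fitted 0.59 ± 0.25, edgeR adjusted p = 0.173). A threshold of 0.05 called 0 of 6, and leaving out 1 lysate or replicate number gave calls for 0 to 5 of the 6. DESeq2 called 5 of 6, against 29.5% of all entries: the same 4, with an adjusted p of 0.00724 for the Muc4/Muc20 entry, and Tff1 (0.33, adjusted p = 0.232). The Muc1 call was the least stable of the 4: it held in 8 of 25 alternatives, and was lost with RLE scaling (edgeR adjusted p = 0.257) and with no filter on low counts (edgeR adjusted p = 0.347). Leaving out KP replicate 2, the adjusted p reached 0.447 for the Muc4/Muc20 entry, 0.641 for Muc1 and 0.629 for Tff3, and it reached 0.657 for Agr2 without KP replicate 3. All 4 calls were lost without the vehicle lysate of KP replicate 1 (edgeR adjusted p from 0.307 to 0.616) or of KP replicate 2 (0.307 to 0.555). Without that of KP replicate 3 only the call of the Muc4/Muc20 entry remained.

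In vehicle-treated N organoids 0 of 6 members were called between the fractions by edgeR, against 15.3% of all entries. None had an edgeR unadjusted p under 0.05, against 17.6% of all entries. DESeq2 called 1, Agr2 (adjusted p = 0.211), against 19.1% of all entries by that tool. The ratios of Agr2 there were -0.20, 0.82 and 1.75. Without the vehicle lysate of N replicate 1 edgeR called Agr2 (1.29, adjusted p = 0.157), and without that of N replicate 3 it called the Muc4/Muc20 entry (-0.56, adjusted p = 0.160). Translational efficiency, the difference between the fractions compared between groups, was called by edgeR for 0 of 6 members between KP and N organoids with vehicle (0% of all entries). Agr2 had the lowest unadjusted p, with a log2 value of -1.31 ± 0.47 (SE, n = 3 per group, unadjusted p = 0.0151, edgeR adjusted p = 0.424). DESeq2 called Agr2 with an adjusted p of 0.217, against 3.43% of all entries by that tool, and the N side of that value rested on few reads. Without the vehicle lysate of N replicate 3, edgeR called Tff3 (0.77, adjusted p = 0.194).

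For CR-31 against vehicle, translational efficiency was called by edgeR for 0 of 6 members in KP organoids and 0 of 6 in N organoids, with 0% of all entries called in both. In N organoids 2 members had an edgeR unadjusted p under 0.05, against 2.92% of all entries. They were Agr2 (log2 value -1.21 ± 0.56, SE) and the Muc4/Muc20 entry (-0.64 ± 0.28), and edgeR gave both an adjusted p of 0.735. In KP organoids no member had an edgeR unadjusted p under 0.05, against 5.50% of all entries. DESeq2 called 0 of 6 members and 0% of all entries in both types.

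**Figure D5:**
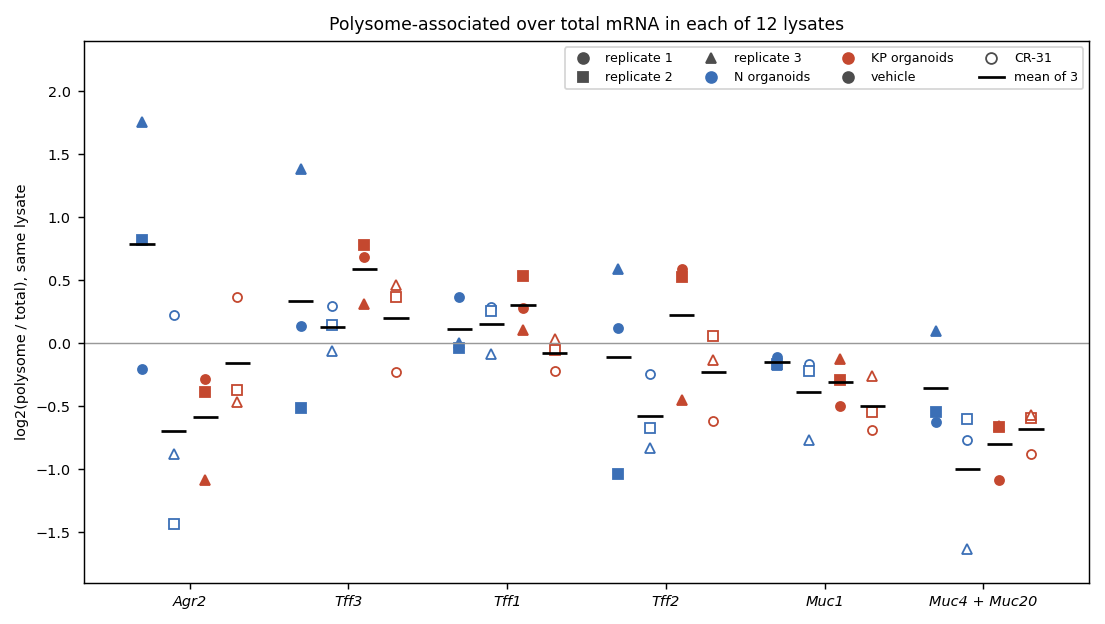
Log2 ratio of polysome-associated to total mRNA for each of 12 lysates, with a bar at the mean of 3 lysates. All 12 lysates lie below 0 for Muc1, and all but 1 N lysate for the Muc4/Muc20 entry, and the vehicle-treated N lysates of Agr2 spread from -0.20 to 1.75.

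Genes that act with the members were read from lists, with counts for vehicle polysome-associated and then total mRNA of KP against N organoids. These counts stand beside 43.8% and 28.6% of all entries called in the 2 fractions, and nothing particular to a list is read from them. Of 17 tested enzymes that build mucin O-glycans, 6 were called higher in each fraction, and 2 and then 1 lower, with a median log2 difference of 0.34 and 0.37. Gcnt3, the mucin-type core branching enzyme, was higher by 4.0 ± 1.02 and 4.25 ± 1.06 on the log2 scale (SE, n = 3 per group, edgeR adjusted p = 0.0247 and 0.0312), from 7.24 ± 8.20 CPM in N to 116.0 ± 29.95 CPM in KP polysome-associated mRNA (SD, n = 3). Fut2, the fucosyltransferase of secreted mucins, was higher by 1.35 ± 0.32 and 1.83 ± 0.33. Gcnt4 was higher by 1.63 ± 0.74 and 2.03 ± 0.80 (edgeR adjusted p = 0.146 and 0.141), at 0.577 CPM in N and 1.8 CPM in KP polysome-associated mRNA. St3gal1 was called lower in both fractions, with -1.34 ± 0.30 and -1.15 ± 0.32 (edgeR adjusted p = 0.0146 and 0.0448). C1galt1 was called lower in polysome-associated mRNA only (-0.79 ± 0.38, edgeR adjusted p = 0.17).

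Of 12 tested regulators of mucous and foregut cells, 2 were called higher in each fraction, and 5 and then 3 lower. Spdef, a transcription factor of goblet cells, was higher by 5.24 ± 1.32 and 3.83 ± 1.44 (edgeR adjusted p = 0.0237 and 0.124). Creb3l1, a transcription factor of secretory cells, was higher by 1.55 ± 0.52 and 1.22 ± 0.53, and Foxa1, a forkhead factor of endoderm, was lower in KP organoids, with -2.83 ± 0.57 and -2.61 ± 0.57. Xbp1, a regulator of secretory capacity, was called lower in total mRNA (-1.14 ± 0.44, edgeR adjusted p = 0.134) and in polysome-associated mRNA (-0.97 ± 0.51, edgeR adjusted p = 0.204). The list thus had calls in both directions.

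Of 14 other genes of the gastric epithelium, 4 were tested, of which 1 and then 2 were called higher and 1 lower in each fraction. Ctse, the gastric protease cathepsin E, was lower in KP organoids, with -4.98 ± 0.97 and -4.48 ± 0.98 (edgeR adjusted p = 0.00903 and 0.0186), and Sult1c2, a sulfotransferase, was higher by 2.47 ± 0.65 and 2.80 ± 0.56. Vsig1, a junction protein of the stomach, was called higher in total mRNA only (1.95 ± 0.98, edgeR adjusted p = 0.249, against 0.273 in polysome-associated mRNA). Of the 6 tested genes of the classical subtype of pancreatic cancer, 0 and then 1 were called higher, and Ctse was the 1 called lower in both fractions. Of 12 tested genes of the basal-like subtype, 2 and then 1 were called higher and 2 lower, among them Krt6a, a keratin, with -5.05 ± 0.92 and -5.30 ± 0.86, and Tns4, a focal adhesion protein, with 2.36 ± 0.85 and 3.00 ± 0.90. Muc2, the intestinal gel mucin, was called higher in polysome-associated mRNA only (1.67 ± 0.88, edgeR adjusted p = 0.211), whereas Muc13 was not called in either fraction.

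Relatives of Cldn18 and Anxa10 moved in both directions. Of 9 tested claudins 1 was called higher and 3 lower in each fraction, and Cldn4 was lower, with -1.81 ± 0.42 and -1.58 ± 0.25. Cldn9 was higher by 1.93 ± 0.66 and 1.46 ± 0.65, and Cldn6 was lower, with -0.96 ± 0.36 and -1.67 ± 0.43. Of 10 tested annexins 2 and then 3 were called higher and 3 lower. Anxa13 was higher by 1.23 ± 0.39 and 1.48 ± 0.30, Anxa1 lower, with -1.30 ± 0.33 and -0.89 ± 0.26, and Anxa6 lower, with -1.10 ± 0.39 and -0.90 ± 0.33.

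The labelled cell type was compared with markers. All 10 markers of duct epithelium had a median of at least 1 CPM in both types. Their summed level was 8206 to 14320 CPM (median 11300) in N and 5628 to 10210 CPM (median 8386) in KP libraries. Of 7 acinar markers 4 had a median count of 0 in both types, among them Cpa1. Of the other acinar markers, Cela1 had a median of 3.85 CPM in N and 3.39 CPM in KP libraries, with no count of 0. Bhlha15 had medians of 1.025 and 0.456 CPM, also with no count of 0, and Ctrb1 of 0.00451 and 0.0250 CPM. The hormone genes Ins1, Ins2 and Gcg had a median count of 0. The summed level of 5 goblet cell markers was 5.23 to 22.9 CPM in N and 6.73 to 36.5 CPM in KP libraries. Within that list Spdef had a median of 0.143 CPM in N and 4.62 CPM in KP libraries and Clca1 of 0.0164 and 1.32 CPM, while Atoh1 had a median count of 0 in N organoids. Fcgbp, which made up most of the sum, overlapped between the types (5.02 to 22.6 CPM in N and 5.52 to 20.75 CPM in KP libraries), and Muc2 had medians of 0.145 and 0.297 CPM. All 5 had a higher median in KP than in N libraries, as did Agr2 and Tff3, and their part in the difference was not tested. The summed level of 3 tuft cell markers was 4.66 to 53.5 CPM in N and 0.519 to 9.37 CPM in KP libraries, most of it Dclk1 (median 29.4 CPM in N and 2.94 CPM in KP libraries), while Pou2f3 had medians of 0.574 and 0.0952 CPM and Trpm5 of 0.0264 and 0.0187 CPM. Summed fibroblast markers were at 0.424 to 1.997 CPM in N and 0.0679 to 0.299 CPM in KP libraries. Summed immune markers were at 4.16 to 25.7 CPM in N and 1.76 to 8.63 CPM in KP libraries. Cd68 was at 4.10 to 25.7 CPM in N and at most 5.70 CPM in KP libraries, and Ptprc reached 2.82 CPM in 1 KP library. Cd3e and Adgre1 had a median count of 0 in both types.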

How the data were processed

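Total and polysome-associated mRNA of N and KP organoids was sequenced as paired reads. Per the study's methods, the authors aligned reads with HISAT2, discarded reads with several positions, and counted coding genes over full transcripts without stated use of strand. The deposited table holds whole-number counts per gene and RPKM, which the authors scaled by transcript length and library size. The table lists mouse genes although the methods and the submitters' processing notes name a human build, so positions come from RefSeq genes on GRCm38.p6 by symbol and were not read from the table. Members and gene lists were chosen with earlier results of these data known.

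Counts were tested with edgeR 4.0.16 (R 4.3.3; TMM over 24 libraries, quasi-likelihood test, Benjamini-Hochberg adjustment over 12209 entries with a count above 0 in every library, threshold 0.25). Organoid type, treatment and fraction defined 8 groups, and the polysome and total tests took the lysate as a block. Polysome and total libraries were fitted separately for the other comparisons. Each SE was the size of the log2 value divided by the square root of the F statistic of its edgeR test. The spread in that test was estimated over all groups of the fit. The edgeR fit and the regression on total mRNA were tested on simulated counts, drawn without a shared lysate or replicate effect. Members with a count of 0 were compared by exact 2-sided permutation tests of log2(CPM + 0.1) with scipy. Log2 ratios of single samples used a prior count of 0.5. Library totals ranged from 47308461 to 267463046 counts.

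Named genes were all 10 members, for each list the 3 genes with the largest change among those called in the same direction in both vehicle fractions, and for each tested member the 3 entries most like it by Pearson r. Members were too low to assess where the median was under 0.5 CPM in each group. Xbp1, Muc2, Muc13, Vsig1, Clca1, St3gal1, C1galt1 and the cell type markers were named beyond this rule. They were chosen after their values were seen. Same-numbered vehicle and CR-31 samples deviated together across genes in each type (r from 0.45 to 0.80 in KP and 0.56 to 0.89 in N organoids), so the replicate number pairs them. Between N and KP organoids the numbers did not pair the samples. The alternatives were other scalings (RLE, upper quartile), filterByExpr, no filter, DESeq2 1.42.0, a threshold of 0.05, replicate blocks, a lane term, regression on total mRNA, and leaving out each of 12 lysates and each of 6 replicate numbers. Part of the genotype of the KP organoids is not reported here.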

Additional observations from a re-analysis of the deposited data

How the results depend on the processing

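Under the alternatives the counts of members called moved in 38 cases and stayed within 1.5 times in 343. Of called or uncalled log2 values, 2182 kept their side of the threshold, 53 lost a call, 25 gained one, and none that was called reversed. The sign changed in 152 uncalled log2 values and 1 exact test. For KP against N organoids in vehicle total mRNA, filterByExpr and no filter called 2 members, the added one being Muc5ac, which passed through its KP libraries and so is no support, and the replicate block shared by N and KP called 3. The numbers did not pair N with KP samples (r from -0.16 to 0.28, over 0.1 in 4 of 12 pairs), so that block is no evidence of a stronger effect. It raised the calls among all entries from 3488 to 4396. Without 1 lysate or replicate number the counts ranged from 1 to 2 in vehicle total, from 1 to 3 in CR-31 polysome and from 1 to 3 in CR-31 total mRNA. They ranged from 0 to 1 for translational efficiency between KP and N organoids and for polysome against total in N organoids, where DESeq2 called 1 in both, and from 0 to 6 for polysome against total in KP organoids. In the last, at most 5 were of the 6 tested members, and in CR-31 polysome at most 2: the other was Muc5ac, which entered the test only where N replicate 3, with its count of 0, was left out. A threshold of 0.05 called 1 in CR-31 polysome, 1 in CR-31 total and 0 in polysome against total in KP organoids. There, entries of 1 symbol, which leave out the Muc4/Muc20 entry and were chosen after seeing the data, gave 2. Medians under 0.1 CPM would make 1 member too low to assess in place of 2. The replicate block within each type changed no CR-31 call of a member: each such count was 0, as under every alternative. The causes were not tested. Depth limits Muc6, Cldn18 and the N values of Agr2 and Muc5ac.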
